A study of Mus musculus with 6 samples.

Results

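The kinesin motor genes are the 41 genes, of 46517 listed, whose symbol is Kif or Kifc followed by a number and at most 1 letter from a to c. They were sorted by their known main role into 13 mitotic, 17 transport, 5 ciliary and 6 other kinesins. The RNA came from stem cells of the hair germ, which were sorted out of mouse back skin at 60 days of age, 3 days after the hair had been pulled to start a new growth phase (depilation). All mice carried the Cre driver Sox9-CreER together with the reporter R26-lox-stop-lox-YFP. To these the LEF1_TCF7dKO mice (double knockout) added Lef1fl/fl and Tcf7-/-, the LEF1cKO mice added Lef1fl/fl alone, and the WT mice added nothing. Lef1 can be deleted only where the Sox9-driven Cre acts, while the Tcf7-/- alleles of the double knockout are not conditional. The sex of the mice is labelled as mixed, and the sort was on P-cadherin, Sca-1, CD34, YFP and integrin b1. Both targeted genes encode transcription factors that act with beta-catenin in Wnt signalling, and the genotypes ask what the loss of Lef1, alone or with Tcf7, does to activated hair germ cells.

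There were 2 libraries a group. Their summed expected counts were 40480694 and 42987210 in the double knockout, 49656967 and 54283055 in LEF1cKO, and 52935357 and 63220022 in WT. Nothing in the labels ties the libraries of a group to different animals: the p-values therefore cover the spread among these samples alone, and that spread may be technical. Transcript of both targeted genes was still read: Lef1 stood at 9.22 and 9.42 TPM (a transcript level scaled for length and library) in the double knockout, 13.5 and 8.37 TPM in LEF1cKO, and 21.4 and 20.4 TPM in WT. Tcf7 stood at 13.7 and 18.0 TPM in the double knockout, 29.3 and 27.8 TPM in LEF1cKO, and 26.9 and 36.0 TPM in WT. The Lef1 fall passed the test in the double knockout (log2 fold change -1.27 ± 0.25, adjusted p = 0.0122) and did not in LEF1cKO (-0.92 ± 0.25, adjusted p = 0.282). In the tests below, counts were fitted with edgeR's quasi-likelihood test, all 6 libraries together, log2 fold changes are given ± SE, and "rose" and "fell" mean a Benjamini-Hochberg adjusted p under 0.05 over all 19640 genes tested.

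Kinesins are motor proteins that burn ATP to move along microtubules or to take their ends apart. Mitotic kinesins build the spindle, move chromosomes and split the dividing cell, and most are made only late in the cell cycle, when their genes are released from repression through a promoter element called the CHR (cell cycle genes homology region), often paired with CCAAT boxes bound by NF-Y. Transport kinesins carry vesicles, organelles and ciliary cargo in dividing and resting cells alike. In the hair follicle, the hair germ is the small cell cluster beneath the bulge that divides first when growth begins.

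Stretches of the start region are shown for 6 members, because the mitotic and transport members with a promoter window differ in the CHR letters there. They come from RefSeq promoter windows on GRCm38.p6, of which mm10 is another name, and run from 120 bases before the annotated start to 50 bases after it, 5′ to 3′ on the gene's own strand. Kif11 lies at chr19:37376262-37376431 (+), Kif23 at chr9:61946750-61946919 (-), Kif20b at chr19:34922238-34922407 (+), Kif4 at chrX:100625945-100626114 (+), Kif18a at chr2:109280618-109280787 (+) and Kif3b at chr2:153291296-153291465 (+). Capitals mark CHR letters (TTTGAA, or TTCAAA on the other strand) and NF-Y box letters (CCAAT, or ATTGG on the other strand). Kif11, Kif23 and Kif4 hold 1 of each, Kif20b holds the CHR letters as a direct repeat, Kif18a is the mitotic member without either, and Kif3b is a transport member with the NF-Y box letters only.
Kif11: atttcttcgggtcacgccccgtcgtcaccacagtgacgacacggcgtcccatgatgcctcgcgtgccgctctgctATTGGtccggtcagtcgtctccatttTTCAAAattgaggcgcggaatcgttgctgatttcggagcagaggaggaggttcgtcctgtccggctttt
Kif23: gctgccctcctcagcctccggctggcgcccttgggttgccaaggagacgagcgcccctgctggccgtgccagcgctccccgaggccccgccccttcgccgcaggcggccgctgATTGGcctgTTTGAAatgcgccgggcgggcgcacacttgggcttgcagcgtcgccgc
Kif20b: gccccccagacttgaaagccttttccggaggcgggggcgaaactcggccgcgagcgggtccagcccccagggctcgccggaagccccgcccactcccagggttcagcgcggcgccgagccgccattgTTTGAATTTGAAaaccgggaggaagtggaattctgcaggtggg
Kif4: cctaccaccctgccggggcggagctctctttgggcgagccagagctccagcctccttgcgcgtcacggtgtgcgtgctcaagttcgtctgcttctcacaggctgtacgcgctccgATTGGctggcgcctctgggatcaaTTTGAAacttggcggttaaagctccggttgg
Kif18a: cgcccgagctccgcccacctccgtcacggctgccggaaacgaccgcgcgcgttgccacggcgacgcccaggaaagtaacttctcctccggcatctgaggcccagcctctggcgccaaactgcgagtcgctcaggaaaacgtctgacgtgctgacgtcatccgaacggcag
Kif3b: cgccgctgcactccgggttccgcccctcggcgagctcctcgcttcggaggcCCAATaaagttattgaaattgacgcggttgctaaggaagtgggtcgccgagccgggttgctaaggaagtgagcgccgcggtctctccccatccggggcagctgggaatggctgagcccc

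Windows of 300 bases (250 before the start to 50 after) were found for 33 of the 41 members. None was found for the mitotic Kif20a, the ciliary Kif19a, or the transport members Kifc3, Kif13b, Kifc2, Kif21b, Kif5a and Kif5b. Both strands of each window were searched. The CHR letters occurred in 11 of the 12 mitotic windows (91.7%), in 0 of 11 transport windows, in 1 of 4 ciliary windows and in 1 of 6 other windows, against 18.1% of the windows of all 27025 genes. Within 50 bases of the start they occurred in 9 of 12 mitotic windows (75%) and 0 of 11 transport windows, against 4.92% of all genes. There they were also found in 1 of 6 other windows, that of Kif26b, and in 0 of 4 ciliary windows. Most mitotic windows thus held the letters close to the start, but Kif14 and Kif2c held them only further upstream (first bases at -228 and -103). These positions rest on 1 annotated start a gene, since only the first of several windows for a symbol was kept (27025 of 32851). For Kif4 the GENCODE gene begins at chrX:100625737, upstream of the stretch printed above. NF-Y box letters occurred in 8 of 12 mitotic windows (66.7%) and 3 of 11 transport windows (27.3%), against 37.9% of all genes. The core letters of a LEF/TCF site (CTTTGA or TCAAAG) occurred in 2 of 12 mitotic windows (16.7%), those of Kif14 and Kif15, against 16.2% of all genes, and both overlap CHR letters there, since CTTTGAA holds both. Outside the mitotic class, 0 of 11 transport, 1 of 4 ciliary (Kif27) and 2 of 6 other windows (Kif12 and Kif26b) held LEF/TCF letters. A match describes the letters in the window and not the binding of a factor.

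**Figure D1:**
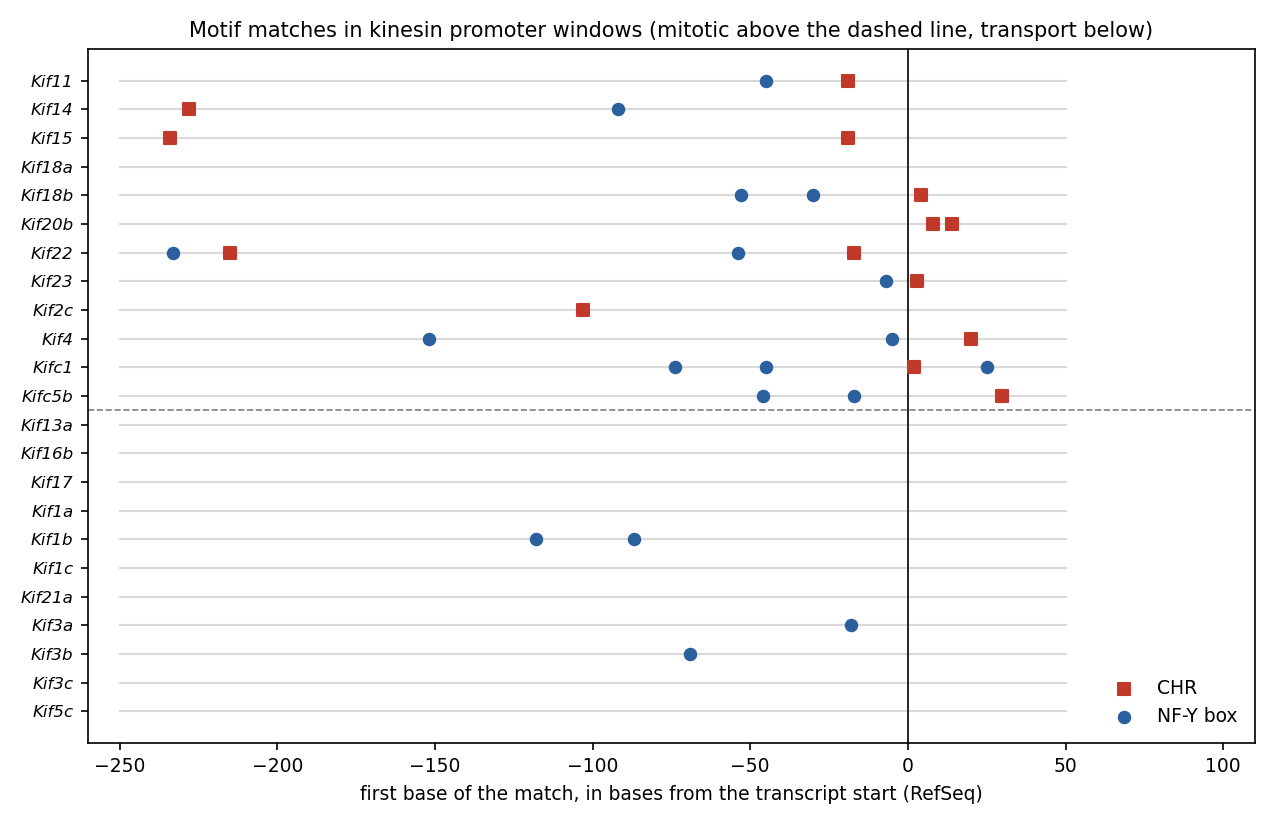
Matches to the CHR letters (squares) and NF-Y box letters (circles) in the promoter windows of mitotic and transport kinesins, with the distance from the annotated start in bases on the horizontal axis and 1 gene a row. CHR matches are found in 11 of 12 mitotic rows, 9 of them within 50 bases of the start, and in 0 of 11 transport rows.

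All 13 mitotic kinesins fell in the double knockout against WT, by a median log2 fold change of -1.31 (range -1.60 to -0.90). The TPM of both double knockout libraries lay below that of both WT libraries for each of the 13. Falls were common in this comparison: 19.6% of all genes tested fell, 32.0% of those averaging at least 10 TPM, and 37.6% changed in either direction, while both TPM values lay below both WT values in 30.7%. The median over all genes tested was 0.012. All 13 calls held when each of the 6 libraries was left out in turn, with a highest adjusted p of 0.0400. Where a leave-out here or below leaves a group with 1 library, that library is assumed to vary like the other groups. Bulk RNA cannot tell fewer cells of a type from less RNA per cell here.

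Among motors that build the spindle, Kif11, the plus-end motor that slides spindle microtubules apart, stood at 39.6 and 35.4 TPM in the double knockout, 105 and 72.7 TPM in LEF1cKO, and 93.0 and 89.7 TPM in WT. Its count level in the double knockout was 0.372 times that in WT (log2 fold change -1.43 ± 0.21, adjusted p = 0.00580). The double knockout libraries were both low, and the LEF1cKO libraries lay on either side of WT. Kif15, a spindle motor that helps to keep the spindle bipolar, was at 19.8 and 17.8 TPM in the double knockout, 50.6 and 39.8 TPM in LEF1cKO, and 46.3 and 47.5 TPM in WT, with a log2 fold change of -1.46 ± 0.16 between the double knockout and WT (adjusted p = 0.00360). Again the LEF1cKO libraries enclosed the WT values. Kifc1, a minus-end motor that focuses spindle poles, was at 43.7 and 39.3 TPM in the double knockout, 79.7 and 69.3 TPM in LEF1cKO, and 72.4 and 79.3 TPM in WT (double knockout against WT -0.90 ± 0.12, adjusted p = 0.00513). With Kif18b it had the smallest fall of the 13.

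Kifc5b, a near copy of Kifc1, had the largest fall, at 7.87 and 9.85 TPM in the double knockout, 21.6 and 17.7 TPM in LEF1cKO, and 24.2 and 24.7 TPM in WT (double knockout against WT -1.60 ± 0.19, adjusted p = 0.00394). Reads of this pair are uncertain, because the Kifc5b transcript is 96.8% identical to Kifc1 over 87.4% of its length and reads shared between them were split by the authors' model. Kifc5b held 15.3% and 20.1% of the TPM of the pair in the double knockout, 21.3% and 20.4% in LEF1cKO, and 25.1% and 23.7% in WT. Summed with the pseudogene Kifc5c-ps, the copies fell by 1.08 ± 0.13 on the log2 scale (adjusted p = 0.00395), so the fall of the pair does not rest on how reads were divided between them. Pseudogene copies of Kif22 and Kif4 held few reads, and adding them left the log2 fold changes at -1.31 and -1.14.

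The motors that act on chromosomes fell too. Kif22, a chromokinesin that pushes chromosome arms, was at 41.6 and 38.9 TPM in the double knockout, 93.8 and 78.0 TPM in LEF1cKO, and 90.9 and 90.1 TPM in WT (double knockout against WT -1.31 ± 0.14, adjusted p = 0.00345). Kif4, the chromokinesin of chromosome arms and spindle midzone, was at 16.2 and 16.9 TPM in the double knockout, 42.2 and 32.6 TPM in LEF1cKO, and 35.2 and 38.0 TPM in WT (-1.14 ± 0.17, adjusted p = 0.00596). Kif2c, which takes microtubule ends apart at centromeres, was at 27.0 and 25.1 TPM in the double knockout, 66.8 and 52.3 TPM in LEF1cKO, and 71.0 and 67.1 TPM in WT (-1.56 ± 0.16, adjusted p = 0.00340). For Kif2c both LEF1cKO libraries lay under both WT libraries, which was also so for Kifc5b and for no other mitotic member (13.4% of all genes). Kif18a, which damps chromosome movement, was at 11.9 and 9.89 TPM in the double knockout, 25.1 and 18.8 TPM in LEF1cKO, and 23.9 and 21.5 TPM in WT (-1.16 ± 0.19, adjusted p = 0.00711). Its fall lay inside the range of the 11 mitotic members whose windows hold the CHR letters, though its own window holds none. Outside the mitotic class the letters were held by Kif26b, which rose, and Kif27, which did not pass. Whether the letters have a part in any of these changes was not tested. Kif18b, which limits astral microtubules, was at 20.6 and 18.5 TPM in the double knockout, 38.2 and 33.7 TPM in LEF1cKO, and 32.7 and 34.5 TPM in WT (-0.90 ± 0.12, adjusted p = 0.00497).

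Motors of cytokinesis fell as well. Kif20a, which carries the chromosomal passenger complex to the spindle midzone, was at 34.9 and 32.0 TPM in the double knockout, 91.6 and 74.5 TPM in LEF1cKO, and 90.6 and 86.0 TPM in WT (-1.54 ± 0.15, adjusted p = 0.00329). Kif23, the motor subunit of centralspindlin, was at 34.4 and 32.5 TPM in the double knockout, 77.8 and 61.8 TPM in LEF1cKO, and 76.3 and 76.9 TPM in WT (-1.33 ± 0.15, adjusted p = 0.00386). In WT, Kif20a is the most abundant of the 4 cytokinesis motors and Kif23 comes next. Kif20b, a motor of late cytokinesis, was at 15.5 and 12.3 TPM in the double knockout, 29.1 and 25.4 TPM in LEF1cKO, and 28.4 and 28.5 TPM in WT (-1.18 ± 0.15, adjusted p = 0.00445). Kif14, which acts at the midbody between daughter cells, was at 7.84 and 6.40 TPM in the double knockout, 16.1 and 11.9 TPM in LEF1cKO, and 14.5 and 14.9 TPM in WT (-1.19 ± 0.17, adjusted p = 0.00557). In all 4 of these motors the second LEF1cKO library was the lower of its pair and lay under both WT libraries. Exons of Kif20a overlap those of Cdc23 on the other strand over 1271 bases, and exons of Kif4 overlap Pdzd11 over 832 bases; the sources used here do not say whether counting used strand, so reads of such partners cannot be told apart.

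**Figure D2:**
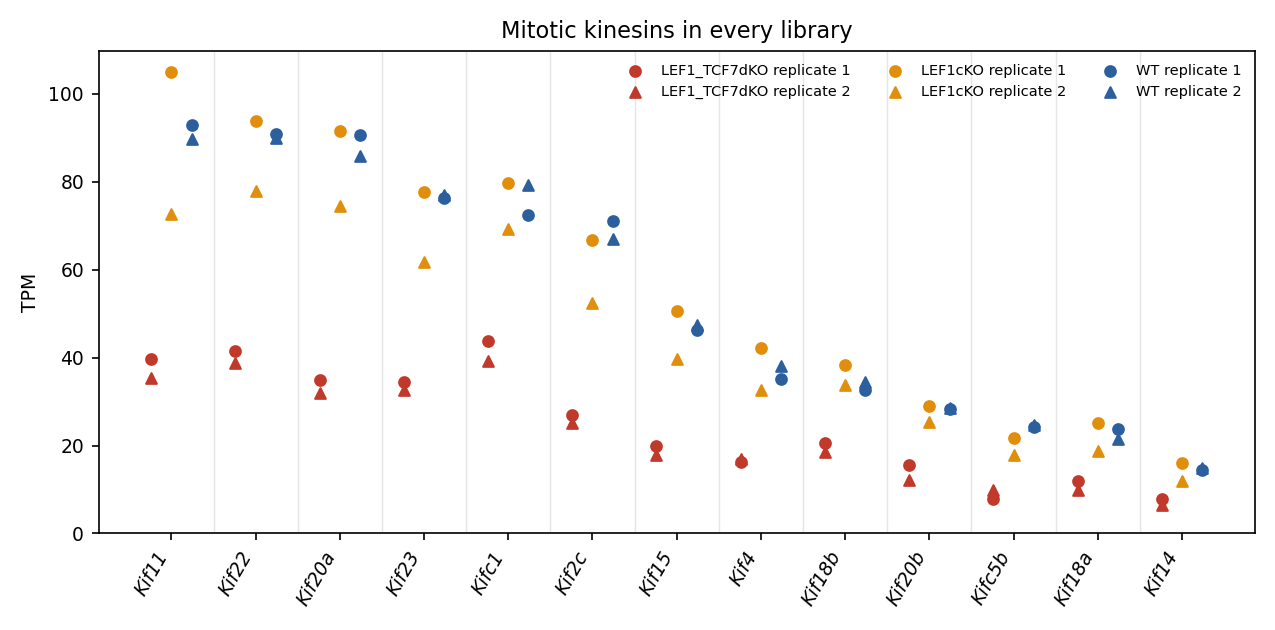
TPM of each mitotic kinesin in every library, with 1 point a library and the groups in the order double knockout, LEF1cKO, WT. Both double knockout points lie below both WT points for all 13 genes, and the LEF1cKO points spread more widely than the WT points.

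Against LEF1cKO, in which only Lef1 is targeted, all 13 mitotic kinesins also fell in the double knockout, by a median log2 fold change of -1.13 (range -1.38 to -0.89). In this comparison 14.1% of all genes fell, 24.4% of those averaging at least 10 TPM, and 25.2% changed in either direction; both double knockout TPM values lay below both LEF1cKO values for all 13, against 29.4% of all genes. The largest fall was that of Kif20a (-1.38 ± 0.15, adjusted p = 0.0107) and the smallest that of Kifc1 (-0.89 ± 0.12, adjusted p = 0.0116). Without the first double knockout library 0 of the 13 passed, with adjusted p from 0.0731 to 0.0798, while the median log2 fold change was -1.17 and the whole fit called 1 of 19640 genes. Without the second double knockout library 10 passed, the exceptions being Kif11, Kif14 and Kif18a. The comparisons of the double knockout with LEF1cKO and with WT share the double knockout libraries.

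No kinesin passed the test in LEF1cKO against WT (0 of 40, against 0.601% of all genes; at an unadjusted p under 0.05, edgeR found 0 mitotic kinesins and 3 transport kinesins, beside 1882 of the 19640 genes tested, and DESeq2 called 0 of either class). The median log2 fold change of the mitotic class was -0.12 (range -0.39 to 0.06). That value depends on which LEF1cKO library is used: it was -0.36 without the first and 0.07 without the second. All 13 mitotic kinesins were higher in the first LEF1cKO library than in the second (median log2 ratio 0.33, range 0.18 to 0.53), which held for 39.1% of all genes. The first library lay above both WT libraries for 11 of the 13 and below both for 2, and the second lay below both WT libraries for 12 of the 13. The same log2 ratio between replicates had a median of 0.15 in the double knockout and -0.01 in WT. A p that misses the threshold does not show that LEF1cKO and WT were alike.

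Transport kinesins went both ways in the double knockout against WT. Of 17 tested, 6 rose, 3 fell and 8 did not pass, with a median log2 fold change of 0.34 (range -0.48 to 1.32). The background was 18.0% of all genes rising and 19.6% falling, and 43.9% of protein-coding genes changing in either direction, so the 9 changed transport genes stand near the background. Only Kifc3 and Kif13b kept their call when each library was left out in turn; the count fell to 2 without the first double knockout library or without either WT library, and to 5 without the second double knockout library. TPM of both double knockout libraries lay above both WT libraries for 13 of the 17, against 43.4% of all genes, and below for 3.

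Of the transport motors, Kifc3 (chr8:95099828-95202812, - strand, mm10), a minus-end motor of apical transport and cell junctions, rose most. It stood at 23.1 and 19.2 TPM in the double knockout, 10.1 and 13.9 TPM in LEF1cKO, and 9.10 and 6.35 TPM in WT (double knockout against WT 1.32 ± 0.21, adjusted p = 0.00713). The 3 groups did not overlap and followed the order double knockout, LEF1cKO, WT, although LEF1cKO against WT did not pass (0.56 ± 0.21, adjusted p = 0.471). Kifc2, a minus-end carrier of neurons in the same kinesin-14 family, was at 4.22 and 4.03 TPM in the double knockout, 1.78 and 2.66 TPM in LEF1cKO, and 2.16 and 2.23 TPM in WT (0.77 ± 0.23, adjusted p = 0.0437). That call was lost without either double knockout or either WT library (highest adjusted p = 0.199, at log2 fold changes of 0.75 to 0.80 over the leave-outs) and with effective transcript length as an offset (adjusted p = 0.0505).

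The kinesin-3 carriers had positive values, and 3 of 6 in the transport class rose, against 18.0% of all genes tested. Of those 3 calls, only that of Kif13b held in every leave-out. Kif13b (chr14:64647265-64809617, + strand), a vesicle carrier, was at 12.8 and 9.57 TPM in the double knockout, 5.62 and 6.92 TPM in LEF1cKO, and 4.24 and 4.72 TPM in WT (1.18 ± 0.17, adjusted p = 0.00557). As for Kifc3, LEF1cKO lay between the other groups without overlap, which was also so for Kif16b. Both LEF1cKO libraries lay above both WT libraries in 28.3% of all genes tested. Kif16b, an early endosome carrier, was at 13.9 and 13.5 TPM in the double knockout, 12.7 and 13.1 TPM in LEF1cKO, and 9.63 and 9.90 TPM in WT (0.34 ± 0.09, adjusted p = 0.0293). Kif1b, a carrier of mitochondria and vesicle precursors, was at 29.6 and 20.5 TPM in the double knockout, 18.3 and 20.2 TPM in LEF1cKO, and 18.3 and 18.2 TPM in WT (0.49 ± 0.15, adjusted p = 0.0463). Both of these calls were lost on leaving out libraries: Kif16b without either double knockout or either WT library (highest adjusted p = 0.198, log2 fold change 0.32 to 0.36), and Kif1b without the first double knockout library or either WT library (highest adjusted p = 0.181, log2 fold change 0.28 to 0.69). Kif1b was also lost with the length offset (0.31, adjusted p = 0.181). Kif1c, a carrier of vesicles and integrins, was the most abundant transport kinesin, at 121 and 101 TPM in the double knockout, 76.6 and 92.5 TPM in LEF1cKO, and 81.9 and 85.3 TPM in WT, and did not pass (0.27 ± 0.12, adjusted p = 0.133). Its double knockout libraries were nonetheless its highest. Kif13a, which carries endosomes and melanosomes, was at 30.2 and 27.7 TPM in the double knockout, 27.2 and 30.1 TPM in LEF1cKO, and 24.5 and 23.8 TPM in WT (0.12 ± 0.09, adjusted p = 0.315). Kif1a, the axonal carrier of synaptic vesicle precursors, stayed near 1 TPM in every library, with 1.63 and 1.08 TPM in the double knockout, 1.40 and 0.82 TPM in LEF1cKO, and 0.74 and 0.96 TPM in WT (0.30 ± 0.38, adjusted p = 0.572).

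Of the 7 members of kinesin-1 and kinesin-2, the classical cargo motors, 0 rose and 2 fell. Of all genes tested, 18.0% rose and 19.6% fell, so these counts do not set the 7 members apart. Kif5b, the ubiquitous heavy chain of conventional kinesin, was at 88.7 and 67.9 TPM in the double knockout, 92.4 and 80.1 TPM in LEF1cKO, and 85.1 and 88.6 TPM in WT (-0.24 ± 0.14, adjusted p = 0.228), and its groups overlapped. Kif3a, a motor subunit of the kinesin-2 that builds cilia, was at 8.80 and 10.6 TPM in the double knockout, 12.4 and 13.1 TPM in LEF1cKO, and 12.8 and 12.4 TPM in WT (-0.48 ± 0.12, adjusted p = 0.0280). Its partner subunit Kif3b was at 11.8 and 11.5 TPM in the double knockout, 10.4 and 11.9 TPM in LEF1cKO, and 11.0 and 9.96 TPM in WT (0.02 ± 0.10, adjusted p = 0.915). The subunits of this motor thus had different calls, which was not tested as a difference. Kif3c, a neuronal kinesin-2 motor, was at 4.80 and 4.70 TPM in the double knockout, 5.38 and 5.53 TPM in LEF1cKO, and 5.61 and 6.21 TPM in WT (-0.45 ± 0.12, adjusted p = 0.0270), and shares 2617 exonic bases with an antisense gene. The Kif3a call was lost without the first double knockout or either WT library (highest adjusted p = 0.195, log2 fold change -0.55 to -0.39), and the Kif3c call without either double knockout or either WT library (highest adjusted p = 0.216, log2 fold change -0.53 to -0.37). Under 10 other settings the Kif3a call was lost in 6 and the Kif3c call in 4.

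The axonal kinesin-4 motors Kif21a and Kif21b went in opposite directions. Kif21a, which restrains microtubule growth, was at 38.3 and 31.2 TPM in the double knockout, 22.9 and 19.8 TPM in LEF1cKO, and 20.1 and 19.8 TPM in WT (0.66 ± 0.14, adjusted p = 0.0150; highest adjusted p = 0.0968 at a log2 fold change of 0.55 to 0.78, lost without the first double knockout or either WT library). Kif21b was at 4.33 and 4.07 TPM in the double knockout, 4.30 and 3.57 TPM in LEF1cKO, and 6.17 and 4.70 TPM in WT (-0.45 ± 0.14, adjusted p = 0.0488). Its call held under 2 of 10 other settings and was lost without either double knockout or either WT library (highest adjusted p = 0.245, log2 fold change -0.51 to -0.40). The remaining transport members, Kif5a, Kif5c and Kif17, which are known from neurons, averaged under 1 TPM and did not pass against WT; Kif5a was at 1.01 and 0.67 TPM in the double knockout, 0.25 and 0.38 TPM in LEF1cKO, and 0.40 and 0.36 TPM in WT (1.01 ± 0.33, adjusted p = 0.0547). Kif5c was at 1.14 and 1.15 TPM in the double knockout, 0.45 and 0.38 TPM in LEF1cKO, and 0.84 and 0.29 TPM in WT, and Kif17 lay between 0.24 and 0.64 TPM in all libraries.

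**Figure D3:**
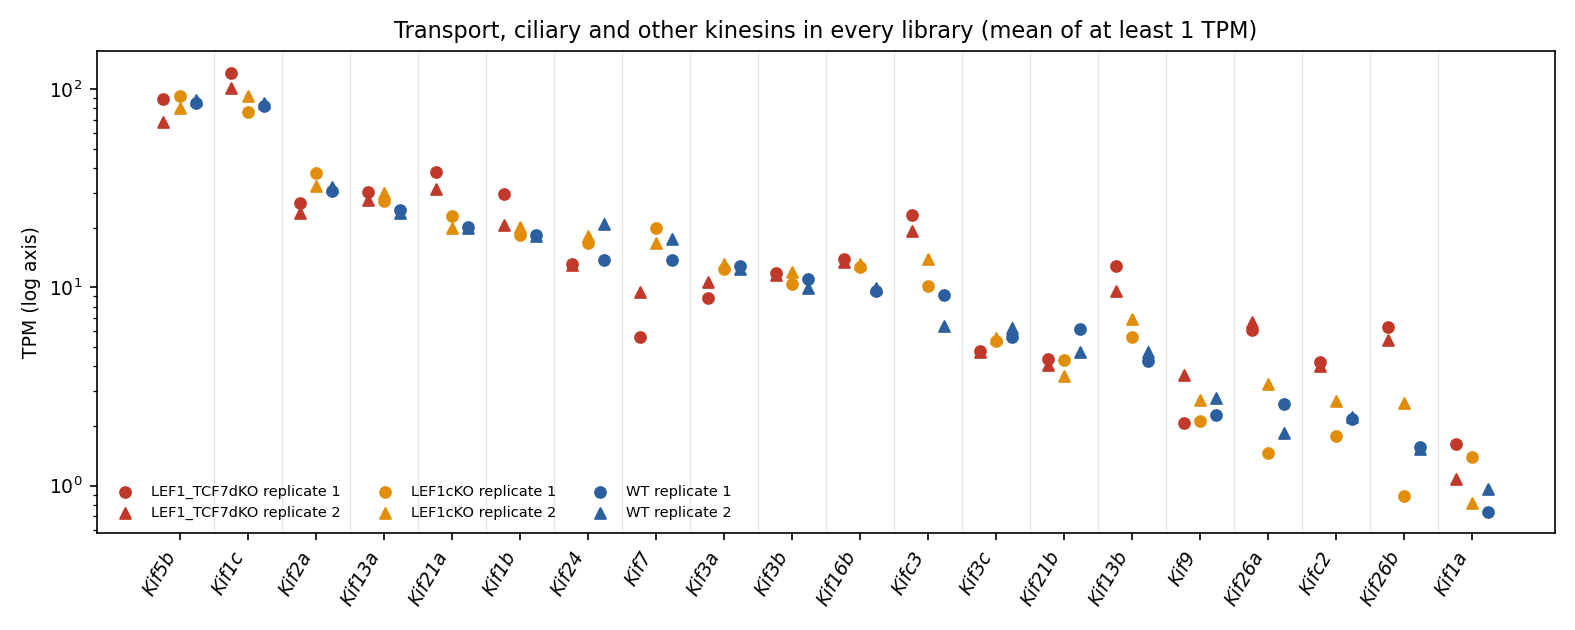
TPM of the transport, ciliary and other kinesins averaging at least 1 TPM, on a log axis. Each gene has 1 point a library, with the groups in the order double knockout, LEF1cKO, WT. Kifc3, Kif13b and Kif16b stand highest in the double knockout and lowest in WT, while Kif5b and Kif3b show no such separation.

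Against LEF1cKO, 5 transport kinesins rose (Kif13b, Kif21a, Kif5a, Kifc2 and Kifc3) and 1, Kif3a, fell in the double knockout, with a median log2 fold change of 0.32. The background was 11.2% of all genes rising and 14.1% falling. None of the 6 calls held in every leave-out: 0 of the 17 passed without the first double knockout library, and 1 passed without the first LEF1cKO library, without the first WT library or without the second. With only the double knockout and LEF1cKO in the fit, 1 passed. In LEF1cKO against WT, 0 of 17 passed and the median was -0.01.

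**Figure D4:**
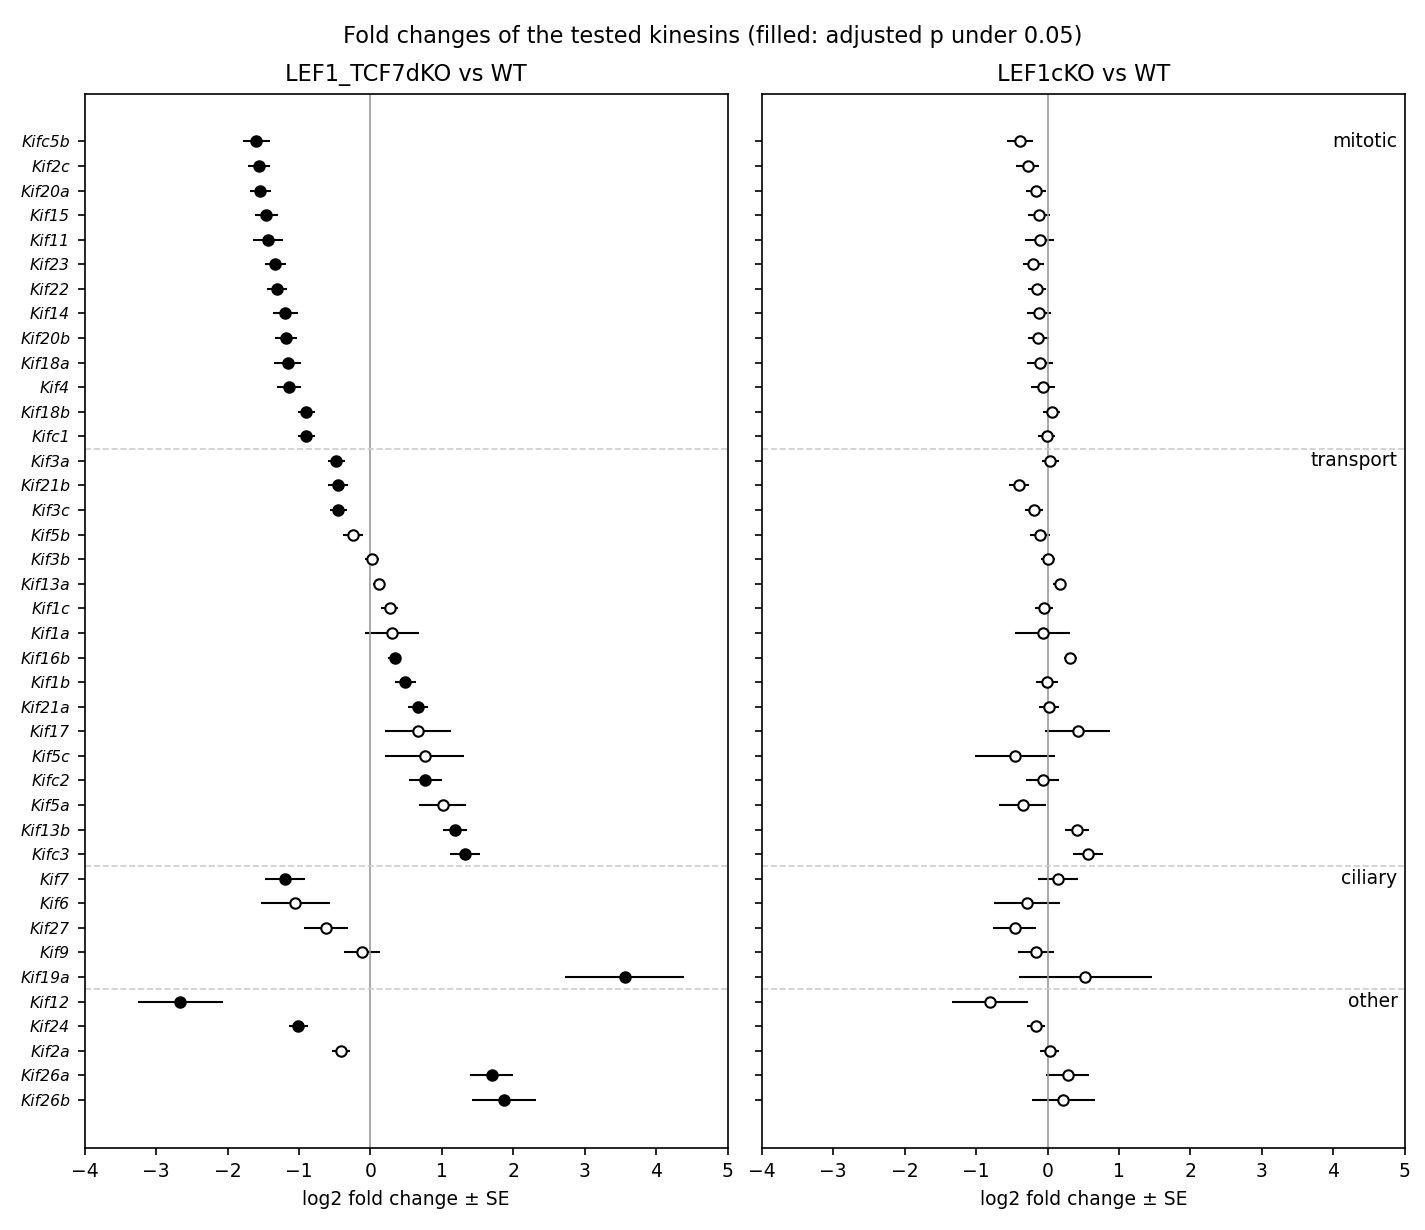
Log2 fold changes with their SE for each tested kinesin, by class, in the double knockout against WT and in LEF1cKO against WT. All 13 mitotic values lie between -1.60 and -0.90 in the double knockout, whereas transport values spread from -0.48 to 1.32 on both sides of 0.

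The balance between the classes turned round. Mitotic kinesins summed to 321 and 295 TPM in the double knockout, 738 and 589 TPM in LEF1cKO, and 699 and 699 TPM in WT. Transport kinesins summed to 396 and 329 TPM in the double knockout, 302 and 316 TPM in LEF1cKO, and 293 and 294 TPM in WT. The mitotic class thus held 41.2% and 42.9% of all kinesin TPM in the double knockout, 65.8% and 59.9% in LEF1cKO, and 66.0% and 65.1% in WT. Its sum divided by the transport sum was 0.811 and 0.895 in the double knockout, 2.44 and 1.87 in LEF1cKO, and 2.39 and 2.38 in WT, so the transport class was the larger in both double knockout libraries and in no other. The most abundant kinesin was Kif1c in both double knockout libraries, Kif11 and Kif1c in the LEF1cKO libraries, and Kif11 and Kif22 in the WT libraries. These sums are descriptions, with no test.

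**Figure D5:**
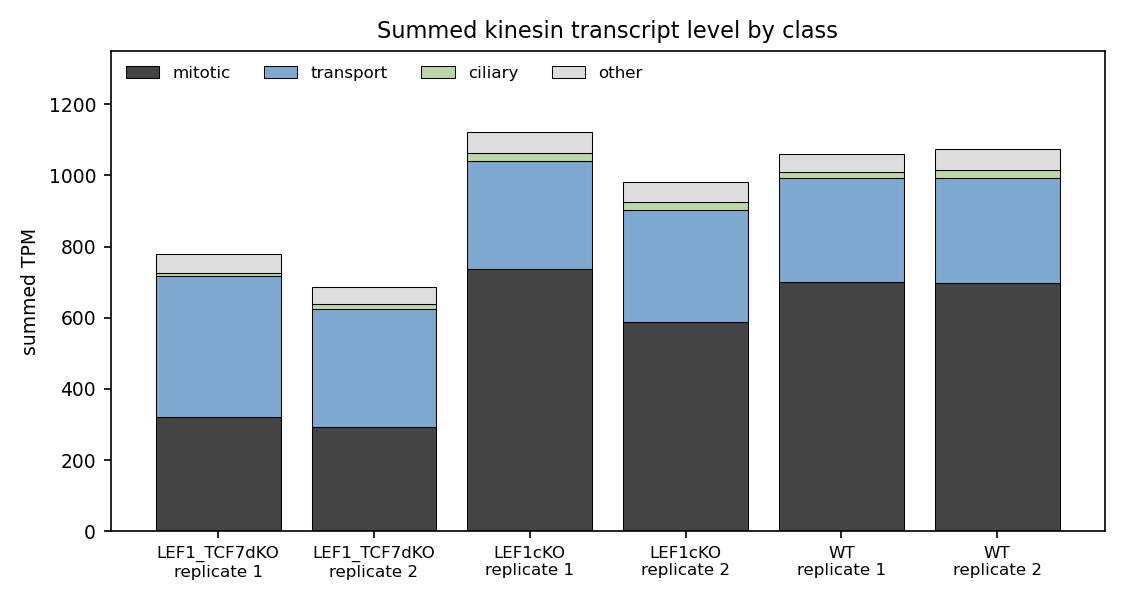
Summed TPM of the kinesin classes in each library, as stacked bars from 0, with the groups in the order double knockout, LEF1cKO, WT. The mitotic part is 321 and 295 TPM in the double knockout and 699 and 699 TPM in WT, while the transport part is larger in the double knockout than in WT.

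In 4 kinesin families members went in both directions against WT, where 37.6% of all genes tested changed. In kinesin-14, Kifc1 and Kifc5b fell while Kifc2 and Kifc3 rose. In kinesin-3, the cytokinesis motor Kif14 fell while the carriers Kif13b, Kif16b and Kif1b rose. In kinesin-4, Kif4, Kif7 and the transport motor Kif21b fell while the transport motor Kif21a rose, so that family did not divide by role. In kinesin-8, Kif18a and Kif18b fell while Kif19a rose. Outside the mitotic class, Kif12, of the family of Kif15, and Kif24, of the family of Kif2c, fell with their mitotic relatives. The 13 mitotic members came from 9 families and all fell. Of the other calls named here, those of Kif7, Kif12, Kif16b, Kif19a, Kif1b, Kif21a, Kif21b and Kifc2 were lost on leaving out some library. Those of Kif19a, Kif1b, Kif21b, Kif24 and Kifc2 were lost with the length offset.

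Ciliary and other kinesins showed no common direction. Kif7 (chr7:79698098-79715720, - strand), the regulator of Hedgehog signalling at the tip of the primary cilium, fell, at 5.60 and 9.43 TPM in the double knockout, 19.8 and 16.7 TPM in LEF1cKO, and 13.7 and 17.5 TPM in WT (-1.19 ± 0.28, adjusted p = 0.0216). The call was lost without the first double knockout library or the second WT library (highest adjusted p = 0.107), with log2 fold changes of -1.64 to -0.83 over the leave-outs. Both double knockout libraries lay below all others, and LEF1cKO and WT overlapped. Kif19a, which limits the length of motile cilia, rose at a low level: it was at 1.04 and 0.49 TPM in the double knockout, 0.07 and 0.09 TPM in LEF1cKO, and 0.18 and 0.01 TPM in WT (3.56 ± 0.83, adjusted p = 0.0203), from 48 and 27 counts in the double knockout, 4 and 7 counts in LEF1cKO, and 7 and 1 counts in WT. Its log2 fold change ran from 2.69 to 5.55 over the leave-outs, and the call was lost without the first double knockout library or the second WT library (highest adjusted p = 0.0927) and with the length offset (adjusted p = 0.0529). Kif9, a motor of motile cilia, was at 2.07 and 3.63 TPM in the double knockout, 2.11 and 2.70 TPM in LEF1cKO, and 2.26 and 2.76 TPM in WT, with no call (-0.12 ± 0.25, adjusted p = 0.732). Kif6 and Kif27 averaged under 1 TPM and did not pass (-1.05 ± 0.48 and -0.62 ± 0.31), though Kif6 passed with the length offset (-2.08, adjusted p = 0.0233). Of 5 markers of cells with motile cilia, 1 was at 0 in every library, and their sum was 4.01 and 6.93 TPM in the double knockout, 2.13 and 4.55 TPM in LEF1cKO, and 4.90 and 3.13 TPM in WT.

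The atypical motors Kif26a and Kif26b, which lack ATPase activity, both rose. Kif26a was at 6.07 and 6.71 TPM in the double knockout, 1.46 and 3.26 TPM in LEF1cKO, and 2.59 and 1.84 TPM in WT (1.70 ± 0.30, adjusted p = 0.00905), with the call lost without either WT library (highest adjusted p = 0.0615). Kif26b was at 6.33 and 5.41 TPM in the double knockout, 0.89 and 2.62 TPM in LEF1cKO, and 1.56 and 1.53 TPM in WT (1.87 ± 0.45, adjusted p = 0.0223), with the call lost without either double knockout or either WT library (highest adjusted p = 0.112). Over the leave-outs the log2 fold change was 1.66 to 1.75 for Kif26a and 1.77 to 1.97 for Kif26b. In LEF1cKO both were higher in the second library, as were the fibroblast markers given further below. That direction was the common one, since the first LEF1cKO library was the higher for only 39.1% of all genes tested. The part of the fibroblast markers in the result was not tested. Kif24, a centriolar depolymerase that restrains cilium growth, fell by its counts (-1.01 ± 0.13, adjusted p = 0.00457). By TPM, both double knockout libraries lay just below the lower WT library and LEF1cKO lay inside the WT range, at 13.2 and 13.0 TPM in the double knockout, 16.8 and 18.2 TPM in LEF1cKO, and 13.7 and 21.0 TPM in WT. Its effective length was 2344 and 2327 bases in the double knockout, 3135 and 2888 bases in LEF1cKO, and 3708 and 2907 bases in WT, and with that length as an offset it no longer passed (-0.55, adjusted p = 0.0817). Kif2a, a depolymerase of spindle poles and neurites, was at 26.6 and 23.7 TPM in the double knockout, 37.8 and 32.4 TPM in LEF1cKO, and 30.5 and 32.1 TPM in WT, and did not pass (-0.41 ± 0.13, adjusted p = 0.0521), though it did with the length offset (-0.46, adjusted p = 0.0391). Kif12 fell at a low level, with 0.27 and 0.25 TPM in the double knockout, 0.98 and 0.83 TPM in LEF1cKO, and 0.85 and 2.17 TPM in WT (-2.66 ± 0.59, adjusted p = 0.0176; lost without either double knockout library or the second WT library, highest adjusted p = 0.104, log2 fold change -3.13 to -1.95), and Kif2b was at 0 in every library.

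Genes that work with each class were set beside it. In the double knockout against WT, 18.0% of all genes tested rose and 19.6% fell, so that 37.6% changed. Of genes averaging at least 10 TPM, 32.0% fell. All 17 mitotic partners, such as spindle kinases and the chromosomal passenger complex, fell when the double knockout was set against WT (median log2 fold change -1.29), as did all 16 proliferation genes (median -1.33). Aurkb, the kinase of the passenger complex that Kif20a carries, was at 49.5 and 44.0 TPM in the double knockout, 114 and 99.8 TPM in LEF1cKO, and 103 and 109 TPM in WT (-1.29 ± 0.12, adjusted p = 0.00331). The mitotic kinesins thus stood at the level of change of the division genes around them. Of 24 tested transport partners (kinesin light chains, adaptors, dynein and ciliary transport subunits), 2 rose, 2 fell and the median was -0.01. Klc3, a kinesin light chain, was at 109 and 106 TPM in the double knockout, 52.1 and 70.8 TPM in LEF1cKO, and 63.8 and 68.0 TPM in WT (0.56 ± 0.12, adjusted p = 0.0177). Kifap3, the subunit that binds cargo for Kif3a and Kif3b, fell with Kif3a, at 16.2 and 16.7 TPM in the double knockout, 19.2 and 19.9 TPM in LEF1cKO, and 19.2 and 18.5 TPM in WT (-0.33 ± 0.09, adjusted p = 0.0357).

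Markers of cells outside the hair germ also moved with the double knockout. The counts below are for the double knockout against WT, where 18.0% of all genes tested rose and 19.6% fell. Of the hair germ and follicle markers, 4 of 10 fell (Cdh3, Lhx2, Sox9 and Lgr5), 3 rose (Krt14, Krt15 and Itga6) and 3 did not pass, and none was at 0. Of the genes behind the sort, Cdh3 (P-cadherin) is the one that fell, Itgb1 (integrin b1) did not pass, and the other two rose. Ly6a (Sca-1) was at 111 and 97.3 TPM in the double knockout, 21.8 and 45.9 TPM in LEF1cKO, and 26.5 and 14.7 TPM in WT (2.22 ± 0.41, adjusted p = 0.00968). Cd34 was at 42.0 and 30.9 TPM in the double knockout, 11.3 and 17.8 TPM in LEF1cKO, and 13.5 and 8.72 TPM in WT (1.54 ± 0.28, adjusted p = 0.00954). Both double knockout libraries were above all others for these 2 genes. Suprabasal epidermis markers rose in 11 of 12, with sums of 14080 and 13230 TPM in the double knockout, 3406 and 3526 TPM in LEF1cKO, and 1716 and 1406 TPM in WT. Fibroblast markers rose in 7 of 7, with sums of 1938 and 1631 TPM in the double knockout, 403 and 904 TPM in LEF1cKO, and 328 and 158 TPM in WT. The second LEF1cKO library, which had the lower mitotic kinesins, thus had the higher fibroblast sum. Immune markers rose in 5 of 7 (607 and 579 TPM in the double knockout, 119 and 214 TPM in LEF1cKO, 74.5 and 30.9 TPM in WT), and endothelial markers in 4 of 5 (63.6 and 13.0 TPM in the double knockout, 7.09 and 8.09 TPM in LEF1cKO, 6.43 and 5.69 TPM in WT). Schwann cell and neuron markers rose in 6 of 7 tested, with sums of 137 and 82.2 TPM in the double knockout, 20.2 and 25.1 TPM in LEF1cKO, and 24.1 and 18.8 TPM in WT. Its neuronal members were low throughout: Tubb3 rose (1.22 ± 0.28, adjusted p = 0.0198; 3.10 and 2.42 TPM in the double knockout, 1.01 and 0.94 TPM in LEF1cKO, 1.01 and 1.14 TPM in WT), Syt1 rose at 0.04 to 0.40 TPM over all libraries (2.14 ± 0.60, adjusted p = 0.0361), Stmn2 was at 2.25 and 0.95 TPM in the double knockout, 0.28 and 0.11 TPM in LEF1cKO, and 0.61 and 0.12 TPM in WT without passing, and Snap25 was too low to be tested. Melanocyte markers changed in 0 of 5 by edgeR (0 at an unadjusted p under 0.05, beside 9529 of the 19640 genes), with sums of 266 and 492 TPM in the double knockout, 376 and 248 TPM in LEF1cKO, and 586 and 398 TPM in WT. The part of these markers in the kinesin results was not tested.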

How the data were processed

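Polyadenylated RNA of 6 libraries was read as pairs. RSEM 1.2.30 and Bowtie2 2.2.9 were used on mm10, per the submitters' processing notes, which name no annotation release. Deposited expected counts are RSEM estimates by the authors, in which a read that fits several genes is shared out. Deposited TPM values are the same estimates scaled by the authors for effective length and library. FPKM values were deposited by the authors too and were not used.

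After rounding, counts were fitted in edgeR 4.0.16 (R 4.3.3; TMM factors 0.962 to 1.04, filterByExpr by group, quasi-likelihood F test, 3 residual degrees of freedom), with 92 spike-in identifiers at 0 left out. Positions came from GENCODE M21 (46005 genes matched). A count of 0 allows up to 3 counts, 0.0475 to 0.0741 CPM, by counting error only. The members, classes and partner and marker lists were chosen with earlier results of these data known. Members averaging at least 1 TPM over the 6 libraries are given with full values, and the others by name; from the other lists up to 4 genes with the smallest p in the double knockout against WT are named, and the hair germ and neuronal markers that are named were named after their values were seen. Alternatives were RLE factors, library size only, no filter, at least 10 CPM in 2 libraries, DESeq2 1.42.0, a replicate block, only the 2 groups compared, limma 3.58.1 on log2(TPM + 0.1) or log2(TPM + 1), other class memberships and each library left out; a length offset and summed near copies were added after seeing the data.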

Additional observations from a re-analysis of the deposited data

How the results depend on the processing

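The mitotic count and median in the double knockout against WT stayed on their side of the threshold, in direction and within 1.5 times, under every alternative run. Values of the transport class moved with the settings, and the cause was not tested. Its 9 calls in the double knockout against WT became 4 with log2(TPM + 0.1), 5 with log2(TPM + 1), 4 with no filter, 3 when kept to the Kif1, Kif3 and Kif5 families, and 2 to 10 when a library was left out, and its median of 0.34 became 0.42 with library size only, 0.48 with log2(TPM + 0.1) and 0.27 in those families. Its 6 calls against LEF1cKO became 3 with the length offset, 2 with either log2(TPM) scale, 1 with only the 2 groups compared, 2 in those families and 0 to 6 with a library left out; the median of 0.32 became 0.23, 0.13 (10 CPM filter), 0.16 (log2(TPM + 1)), and 0.23 to 0.43 with a library left out. In LEF1cKO against WT the transport median of -0.01 became 0.08 with log2(TPM + 0.1) and 0.07 with log2(TPM + 1). The mitotic calls against LEF1cKO ran from 0 to 13 with a library left out. Over all genes, the 118 calls in LEF1cKO against WT became 637 with DESeq2, 422 with no filter and 71 to 150 with a library left out; the 7389 in the double knockout against WT ran from 2202 to 8375 with a library left out; the 4952 against LEF1cKO became 2430 with only the 2 groups compared and ran from 1 to 5906 with a library left out.

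Over all genes tested, same-numbered libraries of different groups did not deviate together (correlations of -0.0421, 0.0558 and -0.0276). A pairing that moved few genes would leave such values low, so they cannot show whether the numbers pair the samples. With a replicate block the transport calls were 4 against WT and 2 against LEF1cKO, and the mitotic calls were 13 in both. With 2 libraries a group and 3 residual degrees of freedom, small changes cannot be told from the spread; for low members, such as Kif19a with 1 count in a WT library, depth adds to that.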

Other observations

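Kifc5c-ps, a pseudogene 92.8% identical to Kifc1 over its whole length that the member rule leaves out, had expected counts of 1 and 0 in the double knockout, 0 and 0 in LEF1cKO, and 12.6 and 28.7 in WT. Kif4-ps was at 0 in every library.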
